A study of Mus musculus with 2 samples.

Results

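The 10 genes described here encode 5 peptide precursors (NTS, GAL, ADM, GHRL and VGF), 3 enzymes that process such precursors (PCSK1, PAM and CPE) and 2 granins (SCG2 and CHGB). They were taken from a table of 57011 labelled genes and loci by their symbols. Each was found in 1 row of its own, and 0 of the 10 shared a row with an overlapping gene. The 10 were chosen by their FPKM in these same 2 libraries, which had been seen when the set was proposed, so the differences below are a description and carry no test.

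The RNA came from 2 patient-derived xenografts, that is, human tumors propagated as grafts in mice. Both were labelled as gastroenteropancreatic neuroendocrine tumors, and the hosts were athymic nude mice of the strain Foxn1nu, which lack a working thymus. 1 library came from a primary tumor in the flank and 1 from a metastatic tumor in the peritoneal cavity. The labels give no treatment for either tumor and no age for the hosts. The sample titles share a code, and whether both tumors came from 1 patient is not said in the labels. An effect of the graft site cannot be told apart from one of the tumor's origin. RNA was extracted from pellets of dissociated tumor, which can also hold cells of the mouse host. With 1 library in each group, no difference has a replicate check, and no error can be given for any value. Levels are in FPKM, a count of sequenced fragments scaled by transcript length and by a sequencing total. Low values often stood in whole-number ratios between the columns, as they would if both had been scaled by about the same total, so a difference in depth may remain in the ratios given here. In bulk RNA, fewer cells of a type cannot be told apart from less RNA per cell.

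Peptide hormones and neuropeptides are made as longer precursors that are cut, trimmed and modified inside dense core granules before release. The prohormone convertases, chiefly PCSK1 and PCSK2 in endocrine cells, cut after pairs of basic residues, CPE removes the exposed basic residues, and PAM turns a terminal glycine into the amide that many peptides need for activity. Granins such as CHGB and SCG2 are abundant acidic proteins of these granules that help pack their cargo and are themselves cut into peptides. In gut and pancreas this machinery is a hallmark of endocrine cells.

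NTS, at 140 and 2078 FPKM, was far more abundant in the metastatic tumor, while the 5 processing enzymes and granins all stood at a lower level there, 3 of them within 2-fold. Each difference is given as the log2 of (metastatic FPKM + 1)/(primary FPKM + 1), a scale that shrinks the differences of low genes, and a gene was called higher or lower from 2-fold on that scale. By this rule 2 of the 10 were higher (NTS and GAL), 4 were lower (ADM, GHRL, PCSK1 and SCG2) and 4 were within 2-fold (VGF, PAM, CPE and CHGB). Of 13811 genes and loci with 1 FPKM or more in at least 1 library, 9.22% were higher and 9.35% lower. From 4-fold, NTS was the 1 higher and PCSK1 the 1 lower gene, where 1.19% and 1.88% of all genes and loci passed. All 10 genes reached 1 FPKM in at least 1 library. By the plain ratio of FPKM, 2 were higher by 2-fold or more and 6 lower, which adds CPE and CHGB to the lower ones, against 13.4% and 14.5% of all genes and loci. With both libraries rescaled to an equal sum, 2 were higher and 6 lower, against 7.24% and 12.7% of all.

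**Figure D1:**
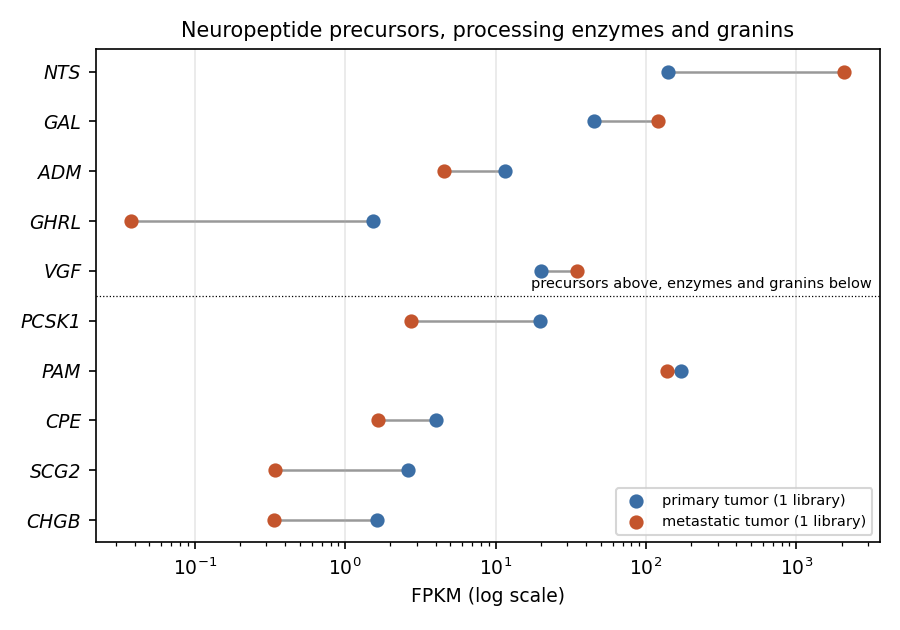
FPKM of the 10 genes on a log axis, in the primary (blue) and the metastatic tumor (orange), 1 library each; grey lines join the 2 values of a gene. NTS lies furthest to the right in the metastatic tumor at 2078 FPKM, and the metastatic point lies to the left of the primary point for all 5 enzymes and granins.

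Among the precursors, NTS encodes neurotensin, a peptide of gut endocrine cells and of the nervous system, together with the related neuromedin N. It stood at 140 FPKM in the primary tumor and at 2078 FPKM in the metastatic one, a 14.8-fold higher level and a log2 ratio of 3.88. Ordered by level, it moved from place 791 to place 61 of the 13811 genes and loci. GAL encodes galanin, a neuropeptide of enteric and central neurons, and stood at 45.0 FPKM in the primary tumor and 121 FPKM in the metastatic one, a log2 ratio of 1.41. NTS and GAL had the highest levels of the 5 precursors in both tumors, and NTS exceeded GAL by 3.11 times in the primary tumor and by 17.2 times in the metastatic one.

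VGF, whose product is a granin-like precursor of several neuropeptides, stood at 20.2 FPKM in the primary tumor and 35.1 FPKM in the metastatic one. Its log2 ratio of 0.77 lay within 2-fold. ADM encodes adrenomedullin, a vasodilator peptide that is amidated and that many cell types make under low oxygen. It stood at 11.5 FPKM in the primary tumor and 4.52 FPKM in the metastatic one, a log2 ratio of -1.18. GHRL encodes ghrelin, a hormone of the stomach that is active once it carries a fatty acid. It stood at 1.53 FPKM in the primary tumor and 0.0379 FPKM in the metastatic one, a log2 ratio of -1.29. By the plain ratio it was 40.4-fold lower, the largest plain ratio of the 10 genes, but it rests on low values in both libraries. The 5 precursors thus went both ways, with a median log2 ratio of 0.77 against 0.03 over all genes and loci. With VGF counted among the granins, the median of the other 4 was 0.11. The 2 lower precursors were the ones with the lowest levels in both tumors.

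The sum of the 5 precursors was 218 FPKM in the primary tumor and 2239 FPKM in the metastatic one. NTS made up 64.2% of that sum in the primary tumor and 92.8% in the metastatic one. Without NTS the other precursors summed to 78.2 and 161 FPKM, a 2.05-fold higher level in the metastatic tumor that lay mostly in GAL.

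Among the enzymes, PCSK1, the convertase that makes the first cuts in many prohormones, stood at 19.9 FPKM in the primary tumor and 2.74 FPKM in the metastatic one. Its log2 ratio of -2.48 was the lowest of the 10 genes on the scale used here, and 1.14% of all genes and loci lay lower. CPE, the carboxypeptidase that trims the cut ends, stood at 4.04 FPKM in the primary tumor and 1.66 FPKM in the metastatic one, with a log2 ratio of -0.93. PAM, the amidating enzyme, stood at 171 FPKM in the primary tumor and 139 FPKM in the metastatic one, with a log2 ratio of -0.30. PAM was the most abundant of the 10 genes in the primary tumor and came after NTS in the metastatic tumor, so the 3 enzymes did not share 1 level or 1 size of difference.

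The granins were low in both tumors. SCG2, secretogranin II and the precursor of secretoneurin, stood at 2.62 FPKM in the primary tumor and 0.340 FPKM in the metastatic one, a log2 ratio of -1.44 and a plain ratio of 7.72-fold lower. CHGB, chromogranin B, stood at 1.64 FPKM in the primary tumor and 0.336 FPKM in the metastatic one, a log2 ratio of -0.98 and a plain ratio of 4.89-fold lower. Both stood below 1 FPKM in the metastatic library. The 5 enzymes and granins had a median log2 ratio of -0.98, with 5 of 5 at a lower level in the metastatic tumor, as were 47.7% of all genes and loci, and 2 of the 5 lower by 2-fold. The 5 together summed to 199 FPKM in the primary tumor and 144 FPKM in the metastatic one. PAM made up 85.9% and 96.5% of these sums. Without PAM the others summed to 28.2 FPKM in the primary tumor and 5.07 FPKM in the metastatic one.

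**Figure D2:**
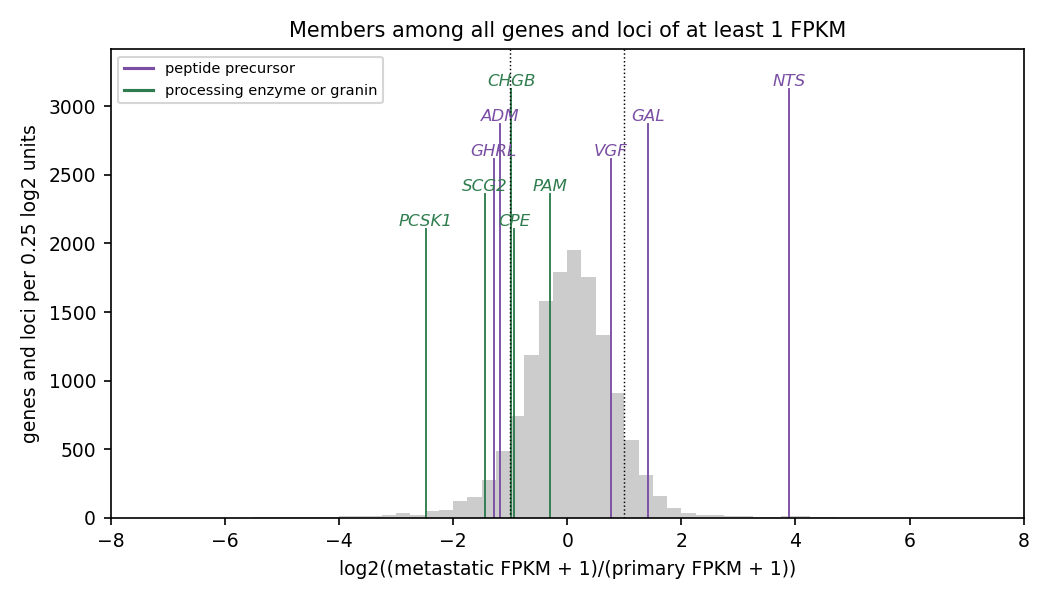
Log2 ratios of the 10 genes (vertical lines, purple for precursors and green for enzymes and granins) over the distribution of all 13811 genes and loci with 1 FPKM or more in at least 1 library (grey bars, number per bin); dotted lines mark 2-fold. NTS lies at 3.88 in the right tail and PCSK1 at -2.48 in the left tail, while PAM at -0.30 lies near the centre.

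FPKM is scaled to transcript length, so levels of different genes can be set side by side within a library. NTS transcripts exceeded those of PCSK1 by 7.05 times in the primary tumor and by 758 times in the metastatic one. Against PAM, NTS stood at a ratio of 0.818 in the primary tumor and 15.0 in the metastatic one, and against CPE at 34.6 and 1256. GAL exceeded PCSK1 by 2.27 times in the primary tumor and by 44.2 times in the metastatic one. The ratio of the summed precursors to the summed enzymes and granins was 1.09 in the primary tumor and 15.6 in the metastatic one. NTS made up 64.2% of the precursor sum in the primary tumor and 92.8% in the metastatic one. PAM made up 85.9% and 96.5% of the other sum. Without NTS the precursors summed to 78.2 and 161 FPKM, against 199 and 144 FPKM for the enzymes and granins. These ratios compare transcripts and say nothing of the peptides, which were not measured.

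Other convertases of the list that reached 1 FPKM were also at lower levels in the metastatic tumor. Of 8 listed convertases, PCSK1 included, 6 reached 1 FPKM in a library, and of those 2 were lower, 0 higher and 4 within 2-fold, with a median log2 ratio of -0.89. All 6 had a lower FPKM in the metastatic library, where 47.7% of all genes and loci did. Without PCSK1, which was chosen with its level known, 5 remained, with 1 lower, 0 higher and a median log2 ratio of -0.86. PCSK6, a convertase of growth factor precursors, stood at 94.8 FPKM in the primary tumor and 25.1 FPKM in the metastatic one, a log2 ratio of -1.88. FURIN, which cuts precursors on the constitutive route through the Golgi in most cells, stood at 294 and 162 FPKM and was the most abundant convertase in both tumors. MBTPS1, PCSK5 and PCSK7 were within 2-fold, though PCSK5, at 7.50 and 3.46 FPKM, was 2.17-fold lower by the plain ratio. PCSK2, the other main convertase of endocrine granules, was listed at 0 in both libraries, and PCSK4 stood at 0.564 and 0.713 FPKM. An exact 0 in this table can be a failed estimate, since LDHA and the ribosomal protein genes RPL7A and RPS25, which nearly all cells use, were also listed at 0 in both.

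Enzymes that trim or modify peptide ends went both ways. Of 12 listed genes, 9 reached 1 FPKM, with 2 higher, 2 lower and 5 within 2-fold, and a median log2 ratio of -0.59. CTSL, a cysteine protease that also cuts some precursors in granules, stood at 83.4 FPKM in the primary tumor and 207 FPKM in the metastatic one. CYB561, which passes electrons into granules for the ascorbate that PAM uses, stood at 5.12 and 12.2 FPKM. In the other direction, QPCT, which forms the pyroglutamate end that neurotensin and some other peptides carry, stood at 4.92 FPKM in the primary tumor and 0.581 FPKM in the metastatic one, a log2 ratio of -1.90. Its Golgi relative QPCTL stood at 22.3 and 18.6 FPKM. CTSV stood at 3.03 and 0.336 FPKM, and the Golgi carboxypeptidase CPD at 27.2 and 13.2 FPKM. CPD exceeded CPE in both tumors. MBOAT4, which adds the fatty acid to ghrelin, stood at 1.69 FPKM in the primary tumor and 0.789 FPKM in the metastatic one.

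**Figure D3:**
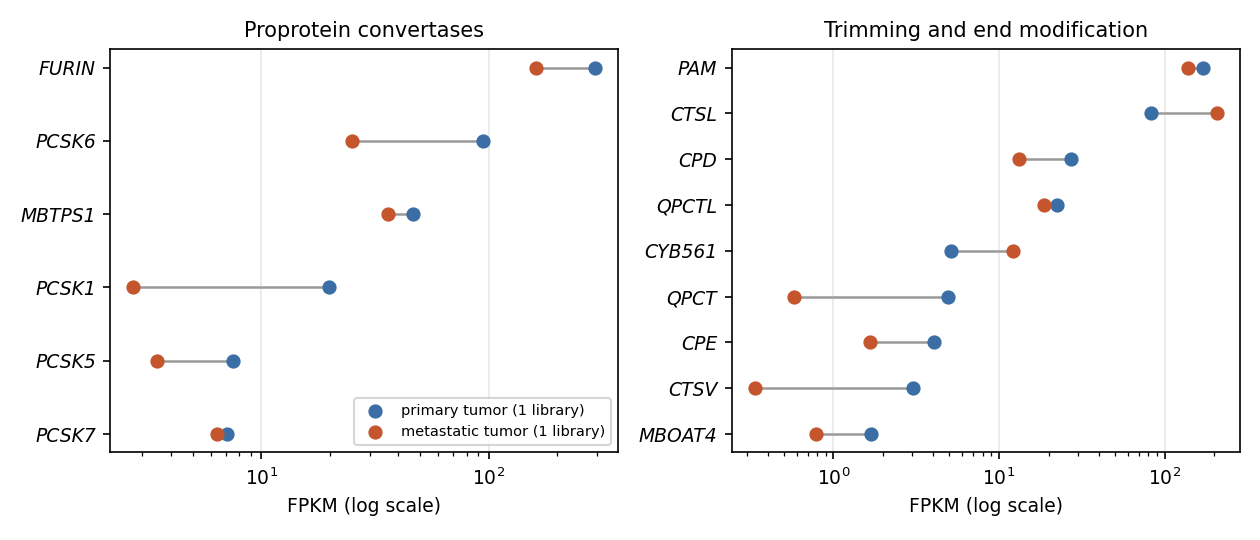
FPKM on a log axis of the 6 listed convertases (left) and the 9 trimming and end-modifying enzymes (right) of at least 1 FPKM in a library, in the primary (blue) and the metastatic tumor (orange), 1 library each. All 6 convertases shown lie lower in the metastatic tumor, while CTSL and CYB561 on the right lie higher, with CTSL at 83.4 and 207 FPKM.

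No other listed granin or granule chaperone reached 1 FPKM. Of 7 listed, VGF, SCG2 and CHGB were the 3 that reached 1 FPKM in a library. CHGA, encoding chromogranin A, and SCG5, the chaperone of PCSK2, were listed at 0 in both, which can be a failed estimate, so their levels are not known. SCG3 stood at 0.658 and 0.172 FPKM and the PCSK1 inhibitor PCSK1N at 0.256 and 0.154 FPKM.

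Genes of the granule membrane and of regulated release were mostly within 2-fold. Of 29 listed, 26 had an entry of their own and 13 reached 1 FPKM. Of the 13, 2 were higher, 0 lower and 11 within 2-fold, with a median log2 ratio of -0.27. By the plain ratio SYT7, at 5.81 and 2.71 FPKM, was 2.14-fold lower, and SYT5, at 1.76 and 0.651 FPKM, 2.71-fold lower. SYTL4, the granule protein granuphilin, stood at 2.24 FPKM in the primary tumor and 6.51 FPKM in the metastatic one, and CADPS2, a priming factor of granule release, at 0.177 and 1.82 FPKM. STX1A, a syntaxin of the plasma membrane, stood at 14.0 and 22.9 FPKM. PTPRN, a granule membrane protein also known as IA-2, stood at 14.3 and 8.25 FPKM. The vesicular monoamine transporters SLC18A1 and SLC18A2 and the SNARE gene SNAP25 stood below 0.1 FPKM in both libraries.

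The list of further peptide precursors went both ways as well. Of 83 other precursors of peptide hormones and neuropeptides, 75 had an entry of their own, and 18 of these reached 1 FPKM. Of the 18, 4 were higher, 3 lower and 11 within 2-fold, with a median log2 ratio of 0.28. The higher ones were AGT, the precursor of angiotensin, at 77.0 and 190 FPKM, NUCB2, the precursor of nesfatin, at 33.7 and 101 FPKM, STC2, a stanniocalcin, at 11.1 and 32.4 FPKM, and ADM2, a relative of adrenomedullin, at 1.59 and 5.75 FPKM. The lower ones were all at most 2.08 FPKM. They were NPPB, a natriuretic peptide, at 2.08 and 0.167 FPKM, APLN, apelin, at 1.48 and 0.0279 FPKM, and SST, somatostatin, at 1.35 and 0.104 FPKM. NPW, neuropeptide W, stood at 99.3 and 163 FPKM and the stanniocalcin STC1 at 155 and 121 FPKM, both within 2-fold.

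The classical hormones of pancreatic islets and gut were sparse. Of 14 such genes, 12 had an entry of their own, and NTS, GHRL and SST were the 3 that reached 1 FPKM in a library. PPY, IAPP, SCT and MLN were listed at 0 in both, and GCG, PYY, GIP, CCK and GAST stayed below 0.5 FPKM. INS was listed only in a locus merged with IGF2, so it has no value of its own. NTS alone therefore made up nearly the whole of this list's summed level. That sum was 143 FPKM in the primary tumor and 2079 FPKM in the metastatic one. NTS was chosen with its level known, so its share follows from its place on the list. The listed 0 values can be failed estimates, and INS and TPH1, which is also in a merged locus, are not in the sum.

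**Figure D4:**
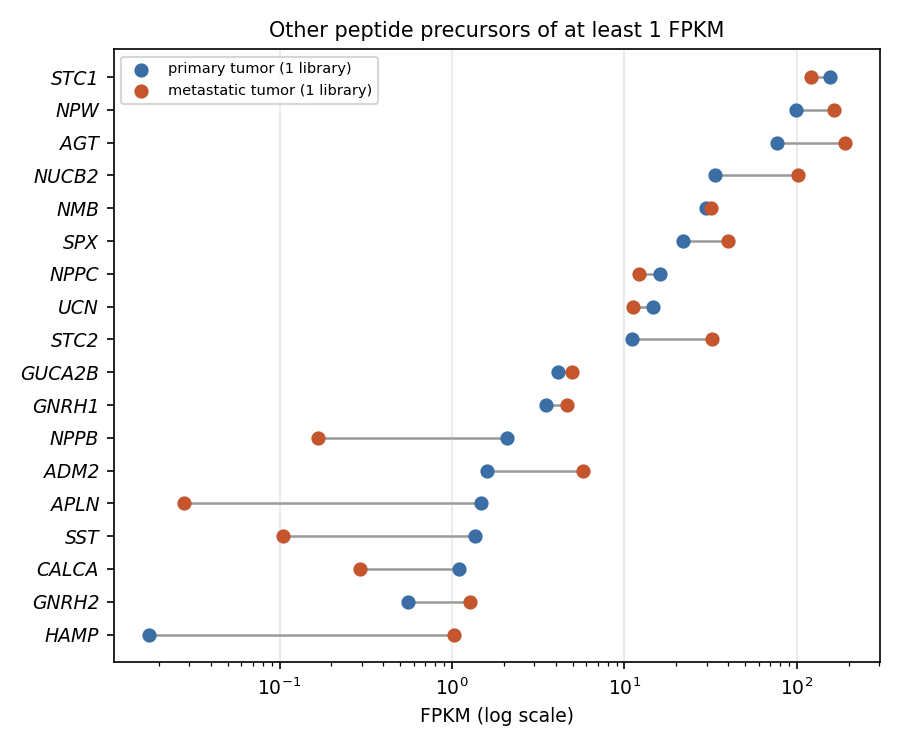
FPKM on a log axis of the 18 other peptide precursors of at least 1 FPKM in a library, in the primary (blue) and the metastatic tumor (orange), 1 library each. In the metastatic tumor no gene shown comes near the 2078 FPKM of NTS, while in the primary tumor STC1 at 155 FPKM lies above NTS at 140 FPKM, and the 3 lower ones, NPPB, APLN and SST, lie at the low end of the axis.

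Receptors of the described peptides were mostly low. Of 13 listed, 4 reached 1 FPKM, with 1 lower and 3 within 2-fold, and a median log2 ratio of -0.50. For neurotensin, the G protein-coupled receptor genes NTSR1 and NTSR2 stood at 0.552 and 0.153 FPKM and at 0.0301 FPKM in each library, while SORT1, the sorting receptor sortilin that also binds neurotensin, stood at 16.2 and 12.0 FPKM. For galanin, GALR1 was listed at 0 in both and GALR2 stood at 0.540 and 0.612 FPKM. For adrenomedullin, the receptor gene CALCRL stood at 0.0236 FPKM in the primary and was listed at 0 in the metastatic tumor. Its partner RAMP2 stood at 16.3 and 5.38 FPKM, and ACKR3, a scavenger receptor, at 79.1 and 52.1 FPKM. RAMP1, the most abundant gene of this list in both tumors, stood at 85.4 and 84.0 FPKM, within 2-fold. The ghrelin receptor gene GHSR stood at 0.0594 FPKM and 0.

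The labelled cell type was checked against 12 markers of neuroendocrine cells, of which 11 had an entry of their own and 6 reached 1 FPKM. Of these 6, UCHL1 and DDC were higher, SCG2 and INSM1 lower, and SYP and CHGB within 2-fold. The median log2 ratio of the 6 was -0.40. SCG2 and CHGB belong to the described set, which was chosen with its levels known. Without them 4 markers remained, with 2 higher, 1 lower and a median log2 ratio of 0.63. The sign of the median thus depended on SCG2 and CHGB. CHGA was listed at 0 in both libraries, but so was LDHA, and such a 0 can be a failed estimate. Whether CHGA was absent is therefore not known. Synaptophysin (SYP), a defining vesicle marker, stood at 1.63 and 1.96 FPKM and was low in both tumors. UCHL1 stood at 225 and 705 FPKM and DDC at 48.1 and 103 FPKM. The markers thus did not go 1 way. INSM1, a transcription factor of endocrine cells, stood at 3.54 and 0.271 FPKM beside the lower PCSK1 and SCG2.

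Other gene groups also differed, but 1 library in each group cannot show whether they vary together with the 10 genes. Of all genes and loci, 9.22% were higher and 9.35% lower. Beside the lower ADM, 12 of the 13 other expressed genes of a hypoxia list were at least 2-fold lower, with a median log2 ratio of -2.00. The list summed to 1745 FPKM in the primary tumor and 293 FPKM in the metastatic one with ADM included. Of 16 fibroblast markers 12 reached 1 FPKM and 8 of these were lower, 1 higher and 3 within 2-fold, with summed levels of 922 and 330 FPKM, while LUM, POSTN and THY1 stood below 0.2 FPKM in both. Of 13 endothelial markers 3 reached 1 FPKM and 2 of these were lower, with summed levels of 28.1 and 6.47 FPKM. The 2 lower ones were EGFL7, at 19.1 and 1.58 FPKM, and CLDN5, at 5.73 and 1.41 FPKM. KDR was listed at 0 in both, and CDH5 and PECAM1 stood below 0.3 FPKM. Of 13 leukocyte markers 3 reached 1 FPKM, with 1 higher and 0 lower, and summed levels of 6.80 and 14.8 FPKM. Beside the higher NTS and GAL, of 10 hepatocyte markers 7 reached 1 FPKM, with 4 higher and 1 lower and summed levels of 356 and 918 FPKM. Of 11 pancreatic acinar markers 7 reached 1 FPKM, with 4 higher and 0 lower and summed levels of 1363 and 7657 FPKM. Most of that sum was SPINK1, at 1198 and 6825 FPKM, while PRSS1, CPB1 and AMY2A stood below 0.2 FPKM in both. The part of these groups in the values of the 10 genes was not tested. How mouse reads were handled is not given, so these marker levels cannot be assigned to human or host cells.

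The genes whose pair of levels was most like that of 4 of the 10 were sought by distance on the log2(FPKM + 1) scale, over 2 libraries only. Merged rows, clones, short, antisense and some other noncoding RNAs were left out of the search. So were symbols that end in P and a number, as those of many pseudogenes do, which also dropped protein-coding genes such as BNIP3 and RAMP1. For GAL the nearest were MRPL41, at 43.6 and 124 FPKM, and EIF2S2, at 44.8 and 126 FPKM, each within 0.061 log2 units. For PCSK1 they were OSBPL3, at 18.6 and 2.17 FPKM, and NFIX, at 17.9 and 3.45 FPKM. For PAM they were ANPEP, at 176 and 141 FPKM, and YWHAQ, at 165 and 135 FPKM. For NTS no gene among those searched was close, and genes left out of the search were not compared. The nearest of those searched, COX6C at 260 and 804 FPKM and GDF15 at 135 and 656 FPKM, lay 1.63 and 1.66 log2 units away.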

How the data were processed

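The 2 libraries, 1 per group, were analysed from the FPKM table that the authors deposited, which has 62573 rows. Per the submitters' processing notes, GRCh38 was the build and the tools included Cufflinks 2.2.1, STAR 2.7.6a and bcl2fastq 2.18.0.12, whose roles are not stated. The labels give mouse as the organism. Neither the annotation nor how mouse reads were handled is given in the sources used here, and no coordinates or sequences were used. Without counts the read depth stays unknown, and no interval for counting error can be given. A trace of depth remained in 6509 rows between 0 and 1 FPKM in both columns, 41.9% of which had a metastatic to primary ratio made of whole numbers no larger than 5 (tolerance 0.01%), against 0.676% with the metastatic column multiplied by 1.05. The columns may thus differ in depth.

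Rows sharing a label were added up with Python 3.11.15, numpy 2.4.6 and pandas 2.3.3. A row of several overlapping genes was given to a gene if the rest were clones, short RNAs or antisense RNAs. The log2 ratio used a pseudocount of 1 FPKM, with no rescaling. List counts and medians cover genes that reach 1 FPKM in either library. The ratio step was tested on simulated data built from more abundant genes only. That test does not cover low genes such as GHRL, CPE, SCG2 and CHGB. Alternatives were other pseudocounts, scalings, filters, a 4-fold threshold, other handling of shared labels and merged rows, and VGF counted with the granins.

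The members and lists were chosen with earlier results of these data known. Besides the 10 genes, the rule for named genes takes up to 6 of the most abundant genes of each list, up to 8 that passed 2-fold, up to 4 of each marker list and the 2 nearest genes of 4 members. Genes named at low levels or at 0 were chosen after their values were seen. Some genes of the lists are not reported here.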

Additional observations from a re-analysis of the deposited data

How the results depend on the processing

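No paired analysis was possible because each group held 1 library, so the shared code in the titles leaves no spread between pairs. No result changed direction under any alternative run, and 95 of 106 values of single genes stayed on the same side of 2-fold. The other 11 were CPE and CHGB passing 2-fold lower. Many of the 106 values could not differ, since the filters and the handling of shared labels and merged rows left a single gene's value as it was. Another pseudocount cannot turn the direction of a single gene, so for single genes only the rescaled values could have done so. The log2 ratio of NTS ran from 3.71 to 3.89 and that of PCSK1 from -2.86 to -2.48, while the low genes moved more: GHRL from -5.34 to -1.29, SCG2 from -2.95 to -1.44 and CHGB from -2.29 to -0.98. The count of lower genes was 6 with a pseudocount of 0.1 or 0.5 FPKM, with none (an alternative chosen after seeing the data) and after rescaling to a sum of 1000000. The share of all genes called lower was 13.8%, 11.6%, 14.5% and 12.7% in these settings. The count was 5 after rescaling by the 75th percentile, where 10.4% of all genes were called lower. It was 2 with a filter of 5 FPKM, which leaves 6 genes and for which no share of all genes is given here. At a 4-fold threshold it was 1, against 1.88% of all, and 1 gene was higher, against 1.19%. The median of enzymes and granins, -0.98, was -2.00 and -1.36 with pseudocounts of 0.1 and 0.5 FPKM and -2.29 with none. It was -1.16 after rescaling to the same sum, -1.18 without short, non-polyadenylated and mitochondrial genes, -1.01 by the 75th percentile and -1.39 with the filter of 5 FPKM. The median of precursors was 1.09 with that filter and 0.11 with VGF counted among the granins, whose median with the enzymes was then -0.95. The share of NTS in the summed FPKM of the metastatic tumor was 87.2% of the 10 genes and 92.8% of the 5 precursors. Rescaling to the same sum moved the median of all genes from 0.03 to -0.12. Depth limits the low genes GHRL, SCG2 and CHGB most, and it is unknown.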

Other observations

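REST, a repressor that keeps many neuronal and granule genes silent outside neurons and endocrine cells, stood at 7.63 FPKM in the primary and 6.51 FPKM in the metastatic tumor. Of 9 genes of its complex 8 reached 1 FPKM, with 0 higher, 1 lower and 7 within 2-fold, and a median log2 ratio of -0.31. RCOR1, which encodes the corepressor CoREST, was the lower one, at 17.9 and 8.41 FPKM, at the 2-fold threshold. HDAC1 stood at 139 and 113 FPKM and KDM1A, a histone demethylase of the complex, at 86.5 and 108 FPKM.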
